A study of Mus musculus with 32 samples.

Results

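The genes described here are 9 feedback inhibitors of the RAS-ERK pathway, in mouse lymphoma lines and normal B cells. They are the MAP kinase phosphatase genes Dusp1, Dusp2, Dusp4, Dusp5 and Dusp6, the Sprouty genes Spry1 and Spry2, and the Spred genes Spred1 and Spred2. Members were taken by their symbol on the array, which gave 11 of 55681 probes and 9 of 35019 gene names. Expression was measured on 32 Agilent 2-colour arrays with 62976 spots each. On 24 of them the sample was in Cy5 and a common RNA pool in Cy3, and values are log2 ratios to that pool. On the other 8 arrays Cy5 held lymphoma cells treated with PCI-32765 and Cy3 the same line in DMSO, and values are log2 ratios of drug over DMSO.

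The lymphoma group held 9 cell lines (12 arrays) from spleens of ATMKO.CD3epsilonKO mice, without the kinase ATM, which senses DNA breaks, and without CD3 epsilon, a chain of the T cell receptor complex. Germinal centre (GC) B cells came from SRBC-immunised ATMWT mice, where SRBC stands for sheep red blood cells, and their 3 arrays were averaged to 1 sample. Anti-IgM samples were splenic B cells cultured with a goat antibody to mouse IgM (15 ug/ml), ATMKO.CD3epsilonKO cells for 3, 6 or 24 h and ATMWT.CD3epsilonKO cells for 6 h. Untreated splenic B cells were available once from each of these strains. The labels of the 6 h samples also carry a treatment time of 3 hours in 1 field, and their titles and protocol text give 6 h. The drug arrays used lymphoma lines 178119 and 28545, also ATMKO.CD3epsilonKO, with PCI-32765 at 100 nM for 1, 3, 6 and 24 h. Each line is a cell line from a tumour, while the other groups are primary cells, so tumour state, growth as a line and loss of ATM cannot be told apart where lymphoma is set against ATMWT cells. In such bulk samples fewer cells of a type and less RNA per cell cannot be told apart either.

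ERK is the last kinase of the cascade that runs through RAS, RAF and MEK, and it is switched off when the phosphates in its activation loop are removed. Dual-specificity phosphatases of the DUSP family remove them, and ERK activity itself induces several DUSP, Sprouty and Spred genes, which closes a negative feedback loop. In B cells the antigen receptor reaches RAS through the kinase BTK, phospholipase C and the RASGRP exchange factors. PCI-32765 (ibrutinib) is an irreversible BTK inhibitor, and anti-IgM crosslinks the antigen receptor.

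The 200 bases before the annotated start of 4 phosphatase genes are shown because Dusp1, Dusp2 and Dusp6 had lower values together in 2 of the comparisons below, whereas Dusp5 did not. Sequences are those of RefSeq on GRCm38.p6, 5′ to 3′ on the strand of the gene. RefSeq promoters were at hand for 8 of the 9 members, all but Dusp4. Capitals mark the motif named after each gene.
Dusp1 (chr17:26508473-26508672, minus strand, cyclic AMP response element): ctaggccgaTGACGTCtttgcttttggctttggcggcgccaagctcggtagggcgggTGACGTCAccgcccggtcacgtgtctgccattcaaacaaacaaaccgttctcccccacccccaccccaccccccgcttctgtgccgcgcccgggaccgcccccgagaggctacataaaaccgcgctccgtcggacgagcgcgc
Dusp2 (chr2:127335959-127336158, plus strand, EGR site): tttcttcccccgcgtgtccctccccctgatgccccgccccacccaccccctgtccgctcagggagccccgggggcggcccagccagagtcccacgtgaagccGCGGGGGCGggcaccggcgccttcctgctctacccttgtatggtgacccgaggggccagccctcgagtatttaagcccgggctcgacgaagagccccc
Dusp5 (chr19:53528945-53529144, plus strand, CArG box): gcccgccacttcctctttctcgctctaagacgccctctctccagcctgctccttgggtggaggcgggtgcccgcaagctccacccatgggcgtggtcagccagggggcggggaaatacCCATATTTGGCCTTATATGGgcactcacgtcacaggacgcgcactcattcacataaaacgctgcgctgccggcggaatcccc
Dusp6 (chr10:99263031-99263230, plus strand, no capitals): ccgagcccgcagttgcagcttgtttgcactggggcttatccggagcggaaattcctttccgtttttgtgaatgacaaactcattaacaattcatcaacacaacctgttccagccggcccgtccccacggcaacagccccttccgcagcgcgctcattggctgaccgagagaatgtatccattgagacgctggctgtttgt

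Motifs were searched on both strands over 250 bases before the start in the 8 members and in 32851 RefSeq promoters of 27025 genes. The full cyclic AMP response element TGACGTCA lay 143 bases before the start of Dusp1, and 1.55% of all promoters held it. Its first 7 letters, TGACGTC, which every full element also holds, occurred once more in Dusp1 at 191 bases and once in Spred2 at 53 bases (2.78% of all promoters). The EGR site GCGGGGGCG stood 98 bases before the start of Dusp2 (2.57% of all promoters). It overlaps a GC box, GGGCGGG, a motif found in 4 of the 8 members and 23.4% of all promoters. Dusp5 had the only CArG boxes among the members, the class of site bound by serum response factor, at 82 and 72 bases (1.47% of all promoters). The AP-1 site TGACTCA (4.46% of all promoters), the ETS site CCGGAAG (6.91%) and the EGR variant GCGTGGGCG (0.536%) occurred in 0 of 8. These matches are descriptions of letters in a window.

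Of 32 arrays, 29 had 45.6% to 60.7% of spots well above background in Cy5. The first array of line 1039 had 21.9%, the first GC array 29.4% and the array of line 28545 at 24 h 85.5%. Across probes the first GC array correlated with the other 2 GC arrays at r = 0.0641 and 0.066, against 0.958 between those, and the 2 arrays of line 1039 correlated at 0.3. Calls that changed without these arrays are given with and without them. Other repeat arrays of 1 sample differed for the 9 members by a median of 0.11 on the log2 scale, and at most by 0.82, for Spry1 in line 1010. Precision is set by how few arrays each group has. Both Atm probes read lower in lymphoma lines (means -0.71 and -1.06) and ATMKO B cells (-0.68 and -0.66) than in ATMWT cells (0.50 and 0.57), but Cd3e was above background on all 24 pool arrays. The position of its probe against the deletion was not checked. Of 6 B cell genes given here, Cd79a (-0.75), Cd79b (-0.60), Ms4a1 (-0.13) and Blk (0.55) did not pass between lymphoma and untreated cells, Pax5 was lower in lymphoma (-0.73, adjusted p = 0.0351 by limma) and Cd22 higher (2.18, adjusted p = 0.000276). After 6 h of anti-IgM these 6 genes were lower than in untreated cells, with differences between -1.79 (Ms4a1) and -0.51 (Blk). GC B cell markers averaged -0.87 to -0.28 against the pool in lymphoma lines, 0.97 in GC cells, -3.28 to -2.48 in anti-IgM cells and -2.39 to -1.95 in untreated cells.

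Lymphoma lines were first set against untreated splenic B cells. Of the 9 members, 5 fell and 1 rose in the lines. Dusp1, Dusp6, Dusp2, Spry1 and Spry2 were lower and Dusp4 was higher, by limma with Benjamini-Hochberg adjustment at 0.05 over all 21434 genes tested. The members' median difference was -1.04, beside -0.01 over all genes. Of all genes, 35.8% were called in either direction, 21.1% lower and 14.7% higher.

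Dusp1, whose product MKP-1 is a nuclear phosphatase of p38, JNK and ERK, was measured by probe A_51_P430900 (mm9 chromosome 17, for which the files list only 26642526 to 26642536). It ran between -2.18 and -0.78 in the 9 lymphoma lines (median -1.89) and stood at 0.34 in GC cells. With anti-IgM, ATMKO cells read -0.39, -1.89 and -1.21 after 3, 6 and 24 h and ATMWT cells -1.74 after 6 h, against 1.71 and 2.23 in untreated ATMKO and ATMWT cells. Every line lay below the GC sample and both untreated samples, while lines and anti-IgM samples overlapped. With 1 GC and 2 untreated samples such separation is a description. How many of all genes separate in this way was not counted, here or for the comparisons below. Against untreated cells the difference was -3.60 ± 0.41 (SE), 12.1-fold lower in lymphoma, with adjusted p = 1.21e-05.

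Dusp6, the cytoplasmic phosphatase MKP-3, which acts on ERK, was read by probe A_51_P502614 (mm9 chromosome 10, 98729985 to 98730044). It was -2.16 to -0.59 in lymphoma lines (median -1.31) and 0.11 in GC cells, against 1.04 and 1.83 in untreated ATMKO and ATMWT cells. With anti-IgM it was -1.42, -1.22 and 0.03 in the ATMKO samples of 3, 6 and 24 h, and -0.83 in the ATMWT sample. The lines did not overlap with untreated or GC cells. The difference from untreated cells was -2.80 ± 0.41, 6.96-fold lower in lymphoma (limma adjusted p = 0.000115).

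Dusp2, or PAC-1, is a nuclear phosphatase first known from activated lymphocytes and was read by probe A_52_P399934 (mm9 chromosome 2, 127163930 to 127163989). Its lymphoma values were -1.29 to 0.05 (median -0.47), lowest in line 1036, with 0.12 in GC cells and 0.98 and 1.43 in untreated ATMKO and ATMWT cells. All lines lay below GC and untreated cells. It was 3.24-fold lower in lymphoma than in untreated cells (-1.70 ± 0.29, adjusted p = 0.000424 by limma). The adjusted p for Dusp1, Dusp6 and Dusp2 stayed below 0.05 in every alternative fit of this comparison that gave them a value (20 for Dusp1, 23 for Dusp6 and Dusp2) except that within slide 3 (adjusted p = 0.0901, 0.128 and 0.0908), where 1 untreated sample was left.

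Dusp4, the nuclear phosphatase MKP-2, ran the other way and was the member highest in lymphoma lines relative to the pool. Its probe A_51_P518051 (mm9 chromosome 8, 35882045 to 35882104) read 0.88 to 2.00 in the lines (median 1.62) and -0.88 in GC cells. The ATMKO anti-IgM samples of 3, 6 and 24 h had 0.74, -1.06 and -2.93, the ATMWT sample had -1.01, and untreated cells -0.50 (ATMKO) and -2.62 (ATMWT). All 9 lines stood above all 7 normal samples. Lymphoma was 8.65-fold higher than untreated cells (3.11 ± 0.65, adjusted p = 0.00176 by limma). That size rested on the ATMWT sample: against ATMKO untreated cells alone it was 2.05, with adjusted p = 0.0884, and within slides 3 and 4 it was 1.95 and 2.19 (adjusted p = 0.201 and 0.112). Line 1001 was lowest. The value of line 1039 averages 0.45 on its poor array and 2.56 on its second array.

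The remaining phosphatase, Dusp5, a nuclear phosphatase specific for ERK, was read by probe A_55_P2063237 (mm9 chromosome 19, 53615682 to 53615741). It read 0.11 to 1.17 in lymphoma lines (median 0.49), -0.17 in GC cells, 0.94 in untreated ATMKO cells and -0.05 in untreated ATMWT cells. The lines overlapped with untreated cells (0.15 ± 0.29, adjusted p = 0.729).

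**Figure D1:**
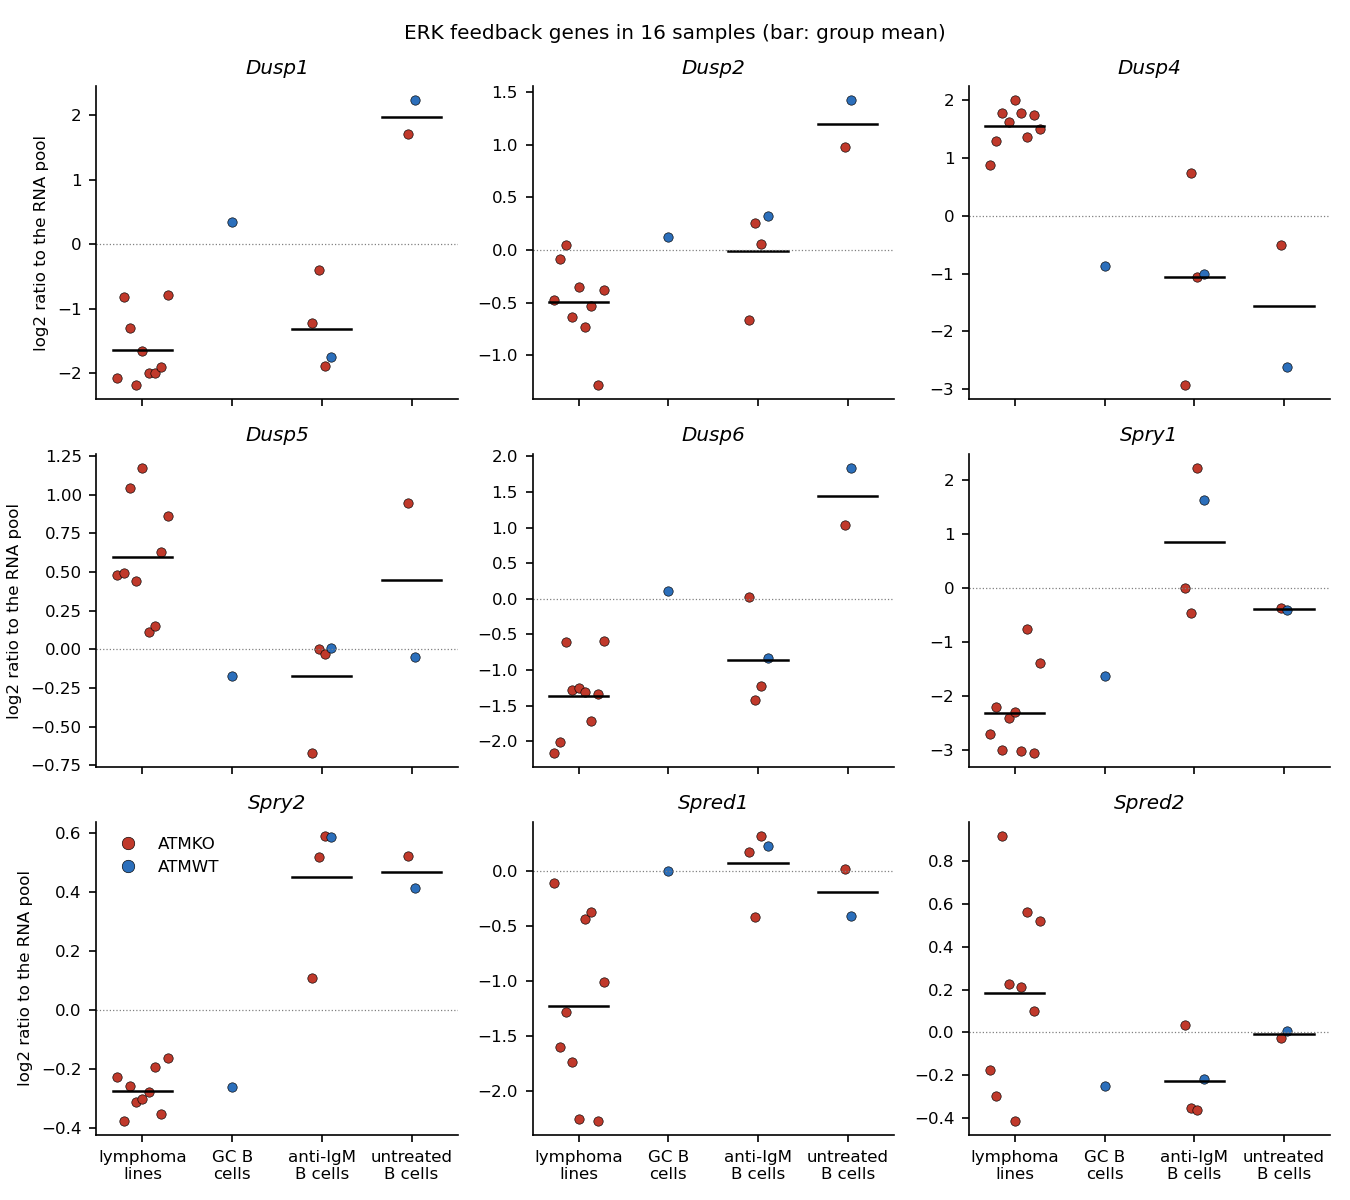
Log2 ratio to the RNA pool (y axis, own scale per panel) of each member in 9 lymphoma lines, 1 GC sample, 4 anti-IgM samples and 2 untreated samples, 1 point per sample, coloured by Atm genotype, with bars at group means. In Dusp4 all lymphoma points, 0.88 to 2.00, lie above all others, and in Dusp1, Dusp2 and Dusp6 all lie below both untreated points.

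Sprouty proteins dampen RAS-ERK signalling downstream of receptor tyrosine kinases. Spry1 (probe A_55_P1952235, mm9 chromosome 3, 37543403 to 37543462) was well above background in Cy5 on only 3 of 12 lymphoma arrays and 0 of 3 GC arrays, so its low values are limited by the scanner. They ran between -3.05 and -0.76 in lymphoma lines (median -2.41) and stood at -1.62 in GC cells, against -0.37 and -0.39 in untreated ATMKO and ATMWT cells. No line overlapped with untreated cells. The difference of -1.93 ± 0.65 passed in limma (adjusted p = 0.0315), but not without either untreated sample (adjusted p = 0.156 and 0.163) nor with slide as a block (-2.03, adjusted p = 0.0532).

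Spry2 (probe A_55_P1952251, mm9 chromosome 14, 106291845 to 106291904) was above background on 2 of 12 lymphoma arrays and 1 of 3 GC arrays, and on all 9 arrays of splenic B cells. It lay between -0.38 and -0.16 in lymphoma lines (median -0.28) and at -0.26 in GC cells, against 0.52 and 0.42 in untreated ATMKO and ATMWT cells. The difference between lymphoma and untreated cells was -0.74 ± 0.12 (limma adjusted p = 0.00024), and its size is set mostly by background signal on the lymphoma side.

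SPRED proteins bind the RAS GTPase activating protein neurofibromin and bring it to the membrane. Spred1 has 3 probes on mm9 chromosome 2. The brightest, A_55_P2079430 (117005906 to 117005965), is used here. A_55_P2079425 (117004952 to 117005011) was also lowest on average in lymphoma (-0.81, against 0.04 in untreated cells), and A_55_P2090045 (116998491 to 116998550) was above background on 0 of 32 arrays and gives no level. Its SD over the 9 lines was 0.81, next to 0.79 for Spry1 and 0.07 to 0.55 for the other members. Lines 1001, 1016 and 1019 read -0.11, -0.43 and -0.37, near the pool, and lines 1013 and 1036 read -2.26 and -2.27, with the signal above background on 6 of 12 lymphoma arrays. GC cells had 0.00 and untreated ATMKO and ATMWT cells 0.02 and -0.41. On A_55_P2079430 lines and untreated cells overlapped, and the difference of -1.04 did not pass (adjusted p = 0.118 by limma). On A_55_P2079425 all 9 lines lay below both untreated samples, with 5 of 12 lymphoma arrays above background.

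Spred2 (probe A_55_P2025840, mm9 chromosome 11, 19922416 to 19922475) read -0.41 to 0.92 in the lines (median 0.21), -0.25 in GC cells and -0.03 and 0.01 in untreated ATMKO and ATMWT cells. Its difference of 0.19 ± 0.27 from untreated cells did not pass. Line 1007 was highest, at 0.92, and line 1013 lowest.

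**Figure D2:**
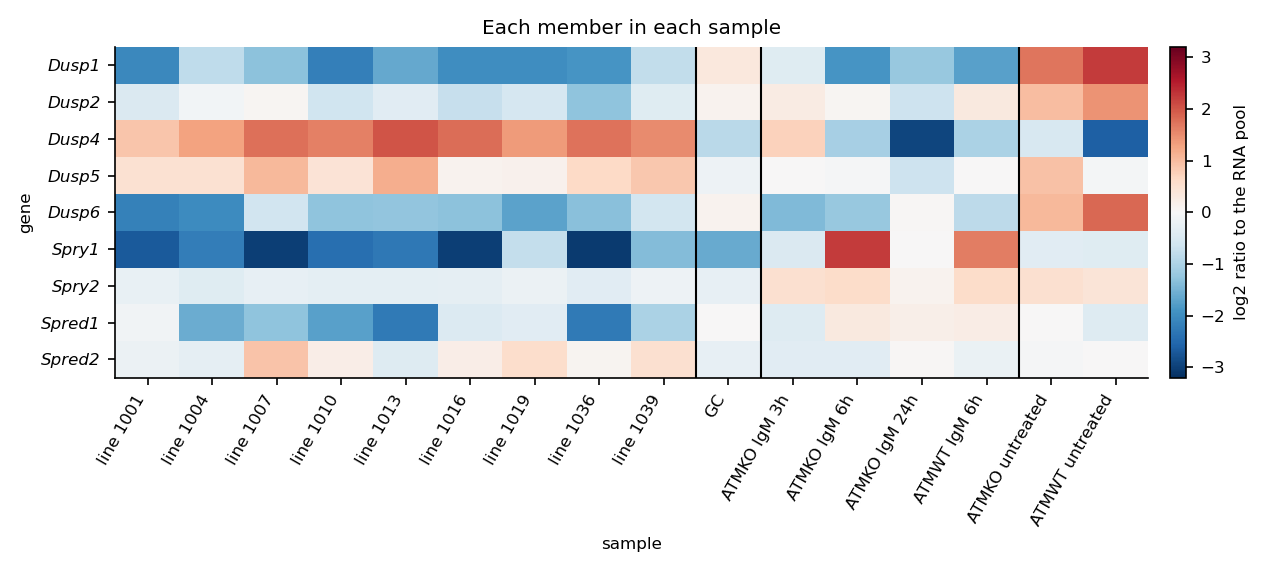
Colour gives the log2 ratio to the RNA pool of each member (rows) in each of 16 samples (columns), with black lines between lymphoma lines, GC cells, anti-IgM cells and untreated cells. Dusp4 is above the pool in all 9 lines, and Spred1 is near the pool in lines 1001, 1016 and 1019 and lowest in lines 1013 and 1036, at -2.26 and -2.27.

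Markers of other cells moved with this comparison. In lymphoma all 9 neutrophil and all 5 erythroid markers fell, with 7 of 10 for T cells, 6 of 8 for macrophages, 6 of 7 for NK cells and 4 of 6 for stroma. The neutrophil list averaged -4.93 to -2.75 in lines against 1.21 and 1.31 in untreated cells, and the macrophage list -2.73 to -1.42 against 0.37 and 0.65. For T cell markers the ranges were -1.64 to -0.63 in lines and 0.47 to 0.68 in untreated cells. NK cell markers ran at -2.61 to -1.19 and 1.24 to 1.39, erythroid markers at -2.66 to -1.39 and 1.07 to 1.56, and stromal markers at -1.90 to -0.98 and 0.66 to 0.96. All 7 resting B cell genes fell too (-4.81 to -3.16 in lines, 0.83 to 1.54 in untreated cells). Their part in the lower Dusp1, Dusp2 and Dusp6 values was not tested.

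Other genes of the pathway were read from lists. Of 30 ERK-linked transcription factors and immediate early genes, 17 fell and 2 rose in lymphoma against untreated cells (median -1.13). The AP-1 subunit Fos was at -4.37 ± 0.69, the orphan receptor Nr4a1 at -4.85 ± 0.80 and the quiescence factor Klf2 at -3.80 ± 0.59, while Phlda1 (1.17) and the ETS factor Elk4 (0.79) rose. Of 13 MAP kinase phosphatases outside the members, 3 rose and 1 fell (median 0.31). Dusp14 was higher by 3.51 ± 0.25, Dusp10, which acts on JNK and p38, by 1.62 and Dusp9 by 0.69, and Dusp7, another cytoplasmic ERK phosphatase, was at -1.46. Of 16 other negative regulators of RAS-ERK, 7 fell and 1 rose (median -0.95), among them the adaptor Dok2 (-4.18 ± 0.45), the receptor inhibitor Errfi1 (-3.26) and the RAS GTPase activating protein Rasal3 (-2.54), with Dok1 at 0.59. Of 22 core kinases, RAS genes and exchange factors, 4 fell and 0 rose (median -0.29), including Rasgrp1 (-1.59), the RAF scaffold Shoc2 (-1.31) and Map2k2, which encodes MEK (-0.70). Of 14 genes of an ERK output list, 3 rose and 2 fell, with the ETS factor Etv1 at 3.91 and Plaur at -3.71.

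Lymphoma lines were next set against the 4 anti-IgM samples, with the same lines as in the comparison above. Dusp4 and Dusp5 rose and Spry1, Spry2 and Spred1 fell, where 46% of all genes were called, 21.2% higher and 24.8% lower. The members' median was -0.48, beside 0.00 over all genes. Dusp4 was 6.13-fold higher in lymphoma (2.62 ± 0.50, adjusted p = 0.000643) and Dusp5 1.71-fold higher (0.77 ± 0.23, adjusted p = 0.012), both by limma. Within slide 3, with 2 anti-IgM samples, neither passed in limma (Dusp4 1.62, adjusted p = 0.0947, and Dusp5 0.44, adjusted p = 0.379). Dusp5 read 0.00, -0.03 and -0.67 in the ATMKO anti-IgM samples of 3, 6 and 24 h and 0.01 in the ATMWT sample, below every line. Its call rested on the 24 h sample, without which the difference was 0.60 (adjusted p = 0.0525).

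Spry1 was 8.98-fold lower in lymphoma than in anti-IgM cells (-3.17 ± 0.50, adjusted p = 0.000132), with 3 of 12 lymphoma arrays above background, so that the lymphoma side of this fold is mostly background signal. Spry2 was at -0.73 ± 0.09 (adjusted p = 1.95e-05), with 2 of 12 lymphoma arrays above background and the same limit, and Spred1 2.47-fold lower (-1.31 ± 0.38, adjusted p = 0.0112), all by limma. Within slide 3 Spry1 (-2.64, adjusted p = 0.128) and Spred1 (-0.98, adjusted p = 0.363) did not pass in limma. Within slide 2 Spred1 did not pass either (-1.54, adjusted p = 0.0542 by limma). For both Sprouty genes no line reached the lowest anti-IgM sample, whereas Spred1 overlapped. Dusp1 (-0.32 ± 0.31, adjusted p = 0.43), Dusp6 (-0.50 ± 0.32, adjusted p = 0.218), Dusp2 (-0.48 ± 0.23, adjusted p = 0.0958) and Spred2 (0.41 ± 0.21, adjusted p = 0.129) did not pass. Of the phosphatases outside the members, 7 of 13 rose and 2 fell, with Dusp14 at 3.64 and Dusp10 at 3.09. Markers fell here as well, 9 of 9 for neutrophils, 6 of 8 for macrophages, 5 of 5 for red cells, 6 of 7 for NK cells, 7 of 7 for resting B cells, 4 of 6 for stroma (1 rose) and 7 of 10 for T cells (3 rose), and their part in the member values was not tested.

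Against GC B cells, 1 of 9 members was called in the lymphoma lines, where 9.78% of all genes were called, 4.41% higher and 5.37% lower. Dusp1 was 3.93-fold lower (-1.97 ± 0.55, adjusted p = 0.0356 by limma), with the GC value taken from 2 arrays, since its spot on the poor GC array was an outlier by the scanner. The call was lost without line 1001, 1016 or 1019 (adjusted p = 0.0502, 0.0502 and 0.0509). Dusp4 stood at 2.43 ± 0.88 (adjusted p = 0.101), and without the first GC array it was 2.81 and passed (adjusted p = 0.0448). Without both poor arrays Dusp4 read 2.92 (adjusted p = 0.0433). The other 7 members did not pass, with Dusp6 at -1.47 (adjusted p = 0.118). Without both poor arrays Dusp6 passed too (-1.60, adjusted p = 0.048). Few markers of other cells differed between these groups: on the 6 lists of such markers 0 genes fell, and 1 of 10 T cell and 1 of 8 macrophage genes rose. Lower in lymphoma were 3 of 7 resting B cell genes (median -2.25) and 4 of 9 GC B cell genes (median -1.29), and their part in the Dusp1 value was not tested. The GC state rests on 1 sample, whose spread is taken from the other groups.

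GC cells set against untreated cells gave 1 of 9 members, Spry2 (-0.73 ± 0.19, adjusted p = 0.021), where 11.5% of all genes were called, 6.92% lower and 4.62% higher. Against anti-IgM cells it was again Spry2 (-0.71 ± 0.17, adjusted p = 0.0129), where 14.3% were called, 6.98% lower and 7.27% higher. The GC value of Spry2 came from arrays on which 1 of 3 spots was above background, that of the poor array. Both calls were lost with slide as a block (-0.58, adjusted p = 0.133, against untreated cells, and -0.59, adjusted p = 0.0925, against anti-IgM cells). They were also lost when 1 array, the first, stood for each sample (-0.18 and -0.31, adjusted p = 0.786 and 0.464), and the call against untreated cells was lost when either untreated sample, ATMKO or ATMWT, was left out (adjusted p = 0.0983 and 0.0506). Without the poor GC array, which leaves 0 of 2 GC spots above background, the differences were -0.95 and -0.93. Spry1 was not well above background on any GC array, so no fold is given for it in GC cells. Dusp1 in GC against anti-IgM cells stood at 1.66 (adjusted p = 0.0748), and without both poor arrays its adjusted p was 0.0395. Other-cell markers moved with these comparisons: against untreated cells, GC cells were lower in 9 of 9 genes for neutrophils, 7 of 10 for T cells, 6 of 8 for macrophages, 6 of 7 for NK cells, 5 of 5 for red cells and 2 of 6 for stroma. Against anti-IgM cells they were lower in 9, 7, 5, 5, 2 and 1 of these genes, in the same order of lists. Their part in the Spry2 values was not tested.

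Anti-IgM stimulation of splenic B cells was compared with untreated cells at 6 h, where both genotypes had a sample. No time in culture is listed for the untreated samples. Time in culture and anti-IgM therefore cannot be told apart, here or at the other times. Dusp1, Dusp6 and Dusp2 fell and Spry1 rose, and this 6 h fit called 28.3% of all genes, 16.4% lower and 11.9% higher. The members' median was -0.28, beside -0.05 over all genes. With 4 samples and 1 residual degree of freedom, the spread in this fit is borrowed almost wholly from other genes, and each group has 1 sample per genotype.

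Dusp1 stood at -1.89 in ATMKO and -1.74 in ATMWT cells at 6 h, against 1.71 and 2.23 in untreated ATMKO and ATMWT cells. It was 13.8-fold lower after anti-IgM (-3.79 ± 0.14, adjusted p = 0.00213 by limma). Dusp6 was 5.52-fold lower (-2.46 ± 0.14, adjusted p = 0.00234) and Dusp2 2.02-fold lower (-1.01 ± 0.12, adjusted p = 0.00593), the Dusp2 call being lost under median centring (-0.46, adjusted p = 0.0559). All of these fell in both genotypes. Spry1 read 2.23 in ATMKO and 1.64 in ATMWT cells at 6 h, against -0.37 and -0.39 in untreated ATMKO and ATMWT cells, and was 4.98-fold higher (2.32 ± 0.17, adjusted p = 0.0027). The technical repeat of the ATMKO 6 h sample gave 2.34 beside 2.11 for Spry1.

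Dusp4, Dusp5, Spry2, Spred1 and Spred2 did not pass at 6 h. Dusp4 went opposite ways by genotype, 0.56 lower in ATMKO and 1.61 higher in ATMWT cells after 6 h of anti-IgM, and both 6 h samples ended near -1 against the pool (-1.06 in ATMKO, -1.01 in ATMWT). With 1 sample each, this difference between genotypes was not tested. Spred1 was at 0.47 ± 0.13 (adjusted p = 0.0577) and Spry2 at 0.12 (adjusted p = 0.492).

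The ATMKO course adds 3 h and 24 h, with 1 sample per time and no test of single times. Spry1 was -0.37 in untreated cells, -0.45 at 3 h, 2.23 at 6 h and 0.00 at 24 h, so only the 6 h sample stood high. Dusp6 was 1.04 untreated, then -1.42, -1.22 and 0.03 at 3, 6 and 24 h. Dusp1 was 1.71 untreated, then -0.39, -1.89 and -1.21, and Dusp2 was 0.98, then 0.26, 0.06 and -0.67. Dusp4 was -0.50 untreated, 0.74 at 3 h, -1.06 at 6 h and -2.93 at 24 h, the lowest value of any member but Spry1 on these arrays.

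**Figure D3:**
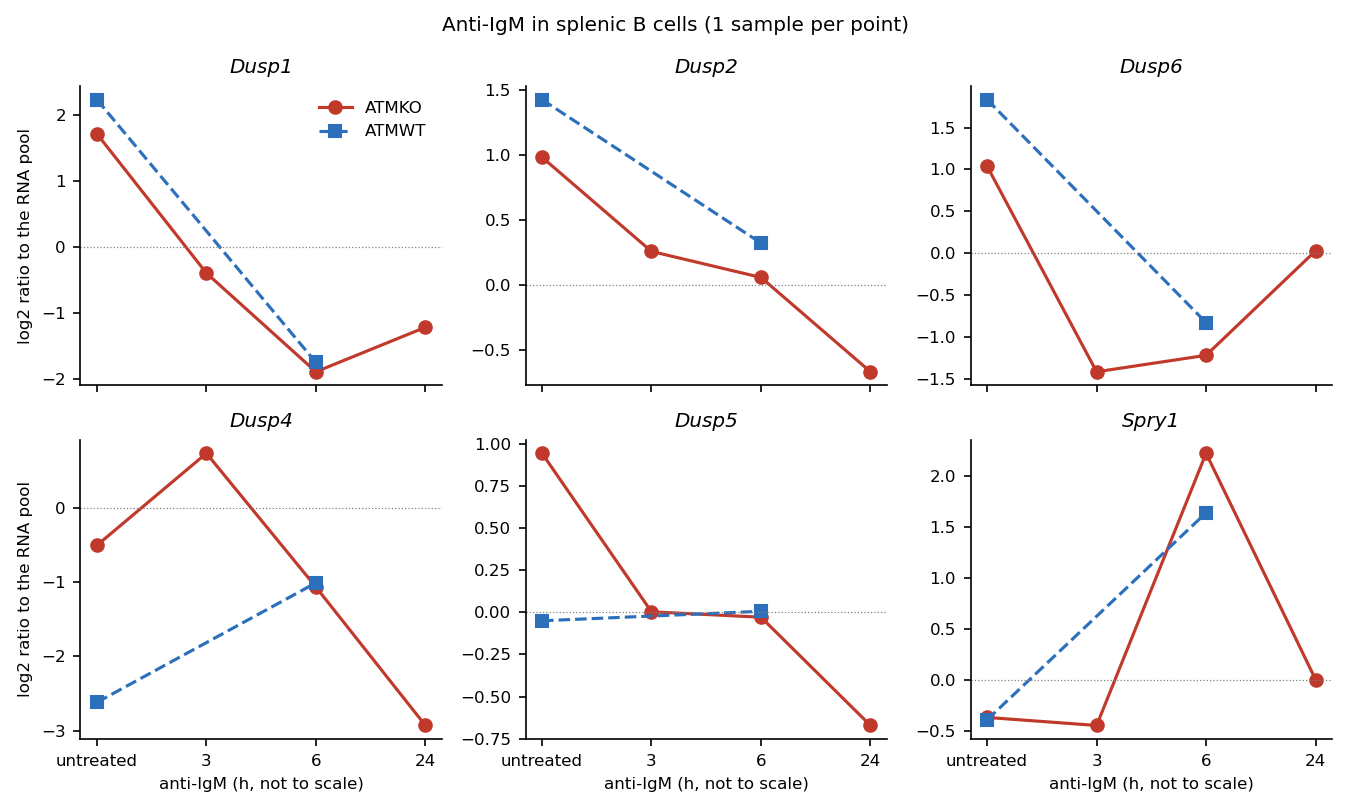
Log2 ratio to the RNA pool (y axis) against time of anti-IgM (x axis, untreated first, spacing not to scale) in splenic B cells, 1 sample per point, ATMKO as circles and ATMWT as squares. Dusp1 falls in both genotypes by 6 h, Spry1 stands at 2.23 and 1.64 at 6 h only, and the Dusp4 lines cross.

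Over all times together, 0 of 9 members were called by limma over 6 samples, adjusting for genotype, in which 0% of 22319 genes were called and 1684 had an unadjusted p under 0.05. Dusp1 (-3.32 ± 0.50, adjusted p = 0.483), Dusp6 (-2.21 ± 0.48, adjusted p = 0.551) and Dusp2 (-1.10 ± 0.31, adjusted p = 0.592) still lay lower in all 4 anti-IgM samples than in both untreated samples. When the spread was taken from all 16 pool samples, Dusp1 (-3.28, adjusted p = 0.00636) and Dusp6 (-2.30, adjusted p = 0.0329) passed in limma. How many of all genes passed in that fit is not given here, so these calls stand without that background. Between ATMKO and ATMWT splenic B cells, 0 of 9 members and 0% of genes were called, with 128 genes at an unadjusted p under 0.05, and the member differences ran from -0.62 for Spry1 to 0.80 for Dusp4.

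Pathway genes at 6 h of anti-IgM showed both directions. Of 30 ERK-linked factors and immediate early genes, 14 fell and 3 rose, with Fos at -5.57 ± 0.13, Fosb at -5.01 and Jun at -3.25, and with Egr2 (2.04), its corepressor Nab2 (1.56) and Fosl1 (1.32) higher. Of 16 other negative regulators, 8 fell and 2 rose, the RAS GTPase activating protein Rasa3 at -1.70 and Rasal1 at 0.84. In the core list 7 of 24 fell and 1 rose, with the exchange factors Rasgrp2 at -2.51 and Rasgrp1 at -1.45 and Nras at 0.46. Of 13 phosphatases outside the members 2 fell and 0 rose (Dusp16 -0.74, Dusp22 -0.60). Markers of other cells fell as well: all 9 for neutrophils, all 7 for NK cells, 8 of 10 for T cells, 6 of 8 for stroma, 5 of 6 for red cells and 4 of 9 for macrophages, with list medians between -1.30 and -0.41. The part of these shifts in the member values was not tested.

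PCI-32765 was tested in lines 178119 and 28545 with 1 array per line and time. Except where the lines were compared, the main fit had no term for line and took the 4 arrays of each line as independent. Spry1 and Spry2 were above background on 1 of 8 drug arrays each, did not pass the filter on dim probes and were not tested. Averaged over the 4 times, 5 of the 7 tested members fell under the drug and 0 rose, where 32.3% of 17951 genes were called, 15.6% lower and 16.7% higher. Their changes were small: Dusp4 at -0.47 ± 0.06, Dusp2 at -0.29 ± 0.08, Spred2 at -0.27 ± 0.07, Spred1 at -0.24 ± 0.07 and Dusp6 at -0.20 ± 0.05 (limma adjusted p = 0.000267, 0.015, 0.017, 0.0293 and 0.00922). Dusp1 (-0.14, adjusted p = 0.085) and Dusp5 (-0.13, adjusted p = 0.102) did not pass. Of 13 alternative fits, 12 kept the call over the 4 times for Dusp4, 11 for Dusp6, 10 for Dusp2, 9 for Spred2 and 6 for Spred1. The members' median was -0.24, beside 0.01 over all genes. Centring on the median in place of loess moved the median of all genes up by 0.42. Relative to that median Dusp4 (-0.36), Dusp6 (-0.22), Dusp1 (-0.10), Dusp5 (-0.37), Spred1 (-0.57) and Spred2 (-0.51) stayed lower and Dusp2 turned to 0.14. At 24 h 4 of 7 GC B cell markers rose under the drug, and their part in the member values was not tested.

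These averages hid different time courses. Dusp6 read -0.59 and -0.54 at 1 h in lines 178119 and 28545, -0.40 and -0.17 at 3 h, -0.28 and -0.22 at 6 h, and 0.31 and 0.28 at 24 h. With loess it was thus below DMSO at the first 3 times and above it at 24 h in both lines. Under median centring the mean of both lines was not below DMSO at 1 h (0.02) or 3 h (0.16). That centring moved the median of all genes up by 0.57 and 0.56 at these times. With loess the Dusp6 difference of 24 h minus 1 h was 0.86 ± 0.13 (adjusted p = 0.00661 by limma), where 7.06% of genes were called, 3.39% higher and 3.68% lower. This contrast was past the threshold under every alternative but median centring (0.67, adjusted p = 0.202).

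Dusp2 followed a like course, with -0.86 and -0.42 at 1 h in lines 178119 and 28545, -0.59 and -0.53 at 3 h, 0.07 and -0.53 at 6 h, and 0.39 and 0.11 at 24 h. Its 24 h minus 1 h difference was 0.89 ± 0.22 (limma adjusted p = 0.0388). It did not hold without the 178119 array at 1 h (0.67, adjusted p = 0.198), 3 h (adjusted p = 0.0666) or 24 h (0.75, adjusted p = 0.157) or the 28545 array at 1 h (1.11, adjusted p = 0.061) or 3 h (adjusted p = 0.0666). Median centring (0.48, adjusted p = 0.404 by limma) and the deposited log ratios (0.95, adjusted p = 0.111 by limma) also ended this call. Under median centring the mean of both lines for Dusp2 was 0.42 at 1 h and 0.56 at 3 h, above DMSO. The spot of Dusp2 in line 178119 at 1 h was saturated.

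Dusp4 moved the other way in time. It read 0.05 and -0.18 at 1 h in lines 178119 and 28545, -0.16 and -0.41 at 3 h, -0.32 and -0.59 at 6 h, and -0.97 and -1.15 at 24 h. Each later time was lower than the one before in both lines. At 24 h Dusp4 was 2.08-fold lower than in DMSO (-1.06 ± 0.11, adjusted p = 0.000346), and 24 h minus 1 h was -0.99 ± 0.16 (adjusted p = 0.00822), both by limma. The call at 24 h kept an adjusted p under 0.05 in all 13 alternative fits, while that of 24 h minus 1 h was lost without the 178119 array at 1 h (-0.87, adjusted p = 0.0608).

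**Figure D4:**
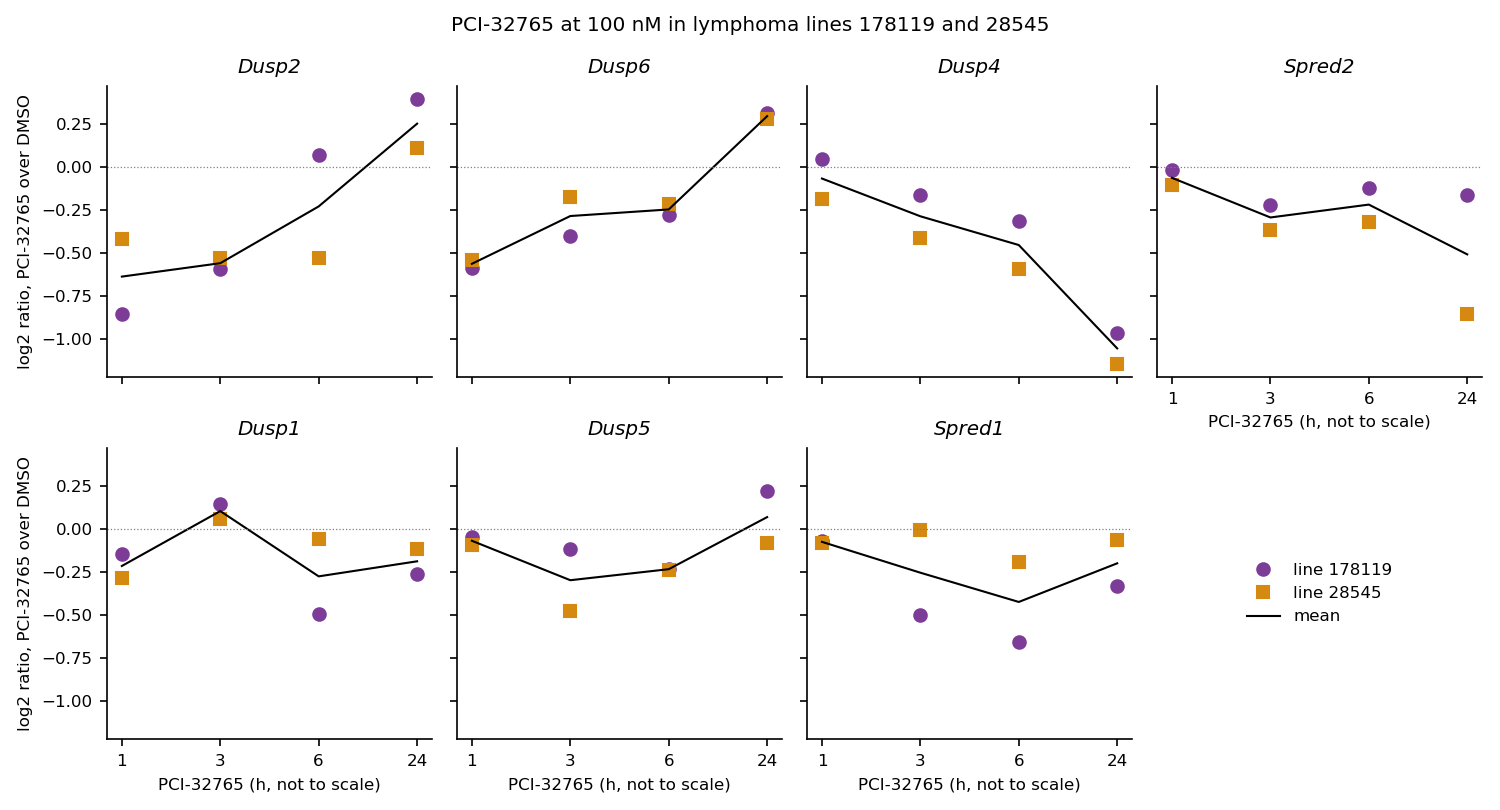
Log2 ratio of PCI-32765 over DMSO (y axis, shared) against treatment time (x axis, not to scale) for the 7 tested members, 1 array per point, line 178119 as circles and 28545 as squares, with the mean of both lines drawn. Dusp2 and Dusp6 start below 0 at 1 h and end above it at 24 h, and Dusp4 goes down to -0.97 and -1.15 at 24 h.

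At single times few members passed. At 1 h it was 0 of 7, where 0.1% of genes were called (0.0724% lower, 0.0279% higher), with Dusp6 at -0.56 ± 0.09 (adjusted p = 0.0721) and Dusp2 at -0.64 ± 0.15 (adjusted p = 0.15). At 3 h it was again 0 of 7 (7.23% of genes, 4.13% lower and 3.1% higher), with Dusp2 at -0.56 (adjusted p = 0.0567). At 6 h Dusp4 fell (-0.45 ± 0.11, adjusted p = 0.0177), where 24.2% of genes were called, 12.3% lower and 12% higher, a call lost without either 6 h array (adjusted p = 0.0562 and 0.207). At 24 h, where 23.1% of genes were called, 12% lower and 11.1% higher, Dusp4 and Spred2 fell and Dusp6 rose. The rise of Dusp6 at 24 h (0.30 ± 0.09, adjusted p = 0.0482) did not hold in 11 of 13 alternatives, where adjusted p reached 0.206.

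Spred2 at 24 h stood at -0.51 ± 0.15 (adjusted p = 0.0317), made of -0.16 in line 178119 and -0.85 in line 28545. Without the 28545 array at 24 h, the one with 85.5% of spots above background, it was -0.16 and did not pass (adjusted p = 0.44). On A_55_P2079430 Spred1 was below DMSO on all 8 arrays, lowest in line 178119 at 6 h (-0.66), but was above background only in that line. In line 28545 it ran between -0.19 and -0.01. On A_55_P2079425 Spred1 was below DMSO on 3 of 4 arrays of line 178119 and 2 of 4 of line 28545. Over the 4 times the Spred1 call did not hold in 7 of 13 alternatives, where adjusted p reached 0.239. Among these was the mean of its probes (-0.21, adjusted p = 0.0562 by limma).

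Dusp1 was -0.14 and -0.29 at 1 h in lines 178119 and 28545, 0.15 and 0.06 at 3 h, -0.50 and -0.06 at 6 h, and -0.26 and -0.12 at 24 h. Dusp5 was -0.05 and -0.09 at 1 h, -0.12 and -0.48 at 3 h, -0.23 and -0.24 at 6 h, and 0.22 and -0.08 at 24 h. Neither passed at any time. Between the 2 lines, 0 of 7 members and 0% of genes were called with time as a term, 639 genes having an unadjusted p under 0.05. The largest member differences, line 28545 minus line 178119, were 0.30 for Spred1 and -0.28 for Spred2.

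Immediate early genes gave the scale of the drug effect on the same arrays. Of 26 measured, 5 fell at 1 h, 15 at 3 h, 15 at 6 h and 8 at 24 h, while 0, 0, 2 and 5 rose. Egr1 was at -2.42, -3.46, -2.45 and -0.97 at 1, 3, 6 and 24 h, Egr2 at -2.13, -2.47, -1.28 and -0.35, and Myc at -1.05, -2.47, -2.18 and -0.45. Fos was at -1.66, -1.76, -0.99 and 0.13. All 4 exceeded every member in size at 1, 3 and 6 h, and at 24 h Dusp4 (-1.06) was lower than each of these 4. Elsewhere on the list Ier3 was about as low as Dusp4 at 24 h (-1.07), with Nr4a1 at -0.93 and Phlda1 at -0.87.

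**Figure D5:**
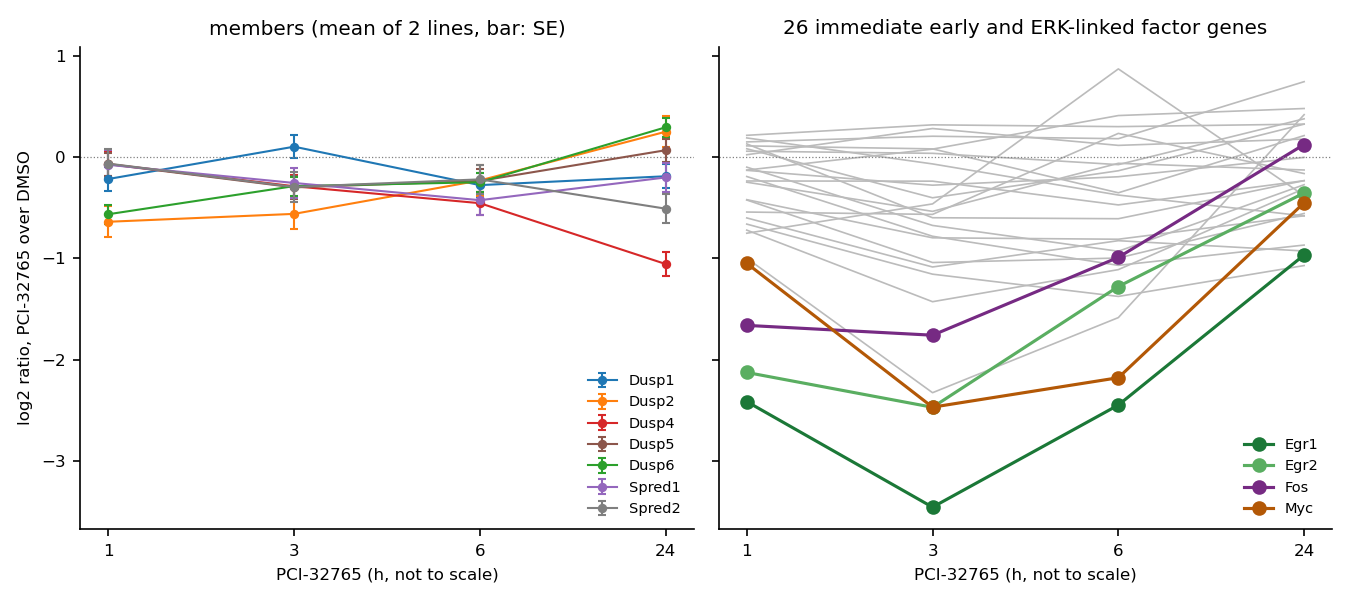
Log2 ratio of PCI-32765 over DMSO (y axis, shared), mean of 2 lines, against treatment time (x axis, not to scale), with the 7 tested members on the left (bars are SE from limma) and 26 ERK-linked factor and immediate early genes on the right, 4 of them named. The members stay between -1.06 and 0.30, while Egr1 reaches -3.46 at 3 h.

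Of other negative regulators, 5 of 12 rose and 2 fell over the 4 times (median 0.11). The adaptor Dok3 was at 0.75 ± 0.07 and reached 1.60 at 24 h, the ubiquitin ligase genes Cbl and Cblb were at 0.36 and 0.35, and Rasal1 and Rasa2, which encode RAS GTPase activating proteins, at -0.40 and -0.39. Of 12 phosphatases outside the members, Dusp10 rose (0.25) and Dusp9 (-0.21) and Dusp22 (-0.20) fell. The core list had 3 of 21 up and 4 down, with Rasgrp1 at 0.31 and the MEK gene Map2k1 at -0.26. Of 9 ERK output genes 1 rose and 2 fell, with Odc1, the first enzyme of polyamine synthesis, at -0.35.

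For each member the genes with the most similar profile over the 16 pool samples were looked up by Pearson's r, given as a description, since the samples fall into groups and share the pool. Those named here are the nearest with a standard gene symbol. Dusp1 was most like Smpd3 (r = 0.934, and 0.821 over the 9 lines alone), Dusp2 like the BAFF family receptor gene Tnfrsf17 (0.893, and 0.321 over lines) and Dusp4 like Cystm1 (0.955, and 0.281 over lines). Among the 3 genes nearest to Dusp6 were Hfe (0.902, 0.59 over lines) and Lmo2, which encodes a LIM-domain transcription cofactor (0.896, 0.844 over lines). Spred1 was most like Gpsm3 (0.921, and 0.946 over lines). Dusp5 was nearest to Trib1 (0.821, 0.507 over lines), Spry1 to Rbpms2 (0.96, 0.898 over lines), Spry2 to Pir (0.978, 0.369 over lines) and Spred2 to Adipor2 (0.815, 0.862 over lines). Among the members over the 9 lines, the highest r were 0.674 for Spred1 with Spry2 and 0.665 for Dusp4 with Dusp6, and the lowest -0.617 for Dusp4 with Spred1.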

How the data were processed

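Per the labels, total RNA was labelled with Cy5 and Cy3 and no dye was swapped. The authors scanned and quantified the arrays with Feature Extraction (version 10.1.1.1 per the file headers). The deposited mean signal and local background of each spot are intensity values, and probe positions are on mm9. The submitters' processing notes name Feature Extraction 9.1 and limma. A deposited value table of log10 ratios matched the scanner's own to 0.0005, was uncentred (column medians -0.083 to 0.058) and was used as an alternative. Here normexp (offset 50) and within-array loess were run in limma 3.58.1 under R 4.3.3 to give log2 ratios, with control and outlier spots left out. A probe was kept if a share of 0.5 or more of a fit's arrays had it well above background in Cy5 or Cy3, and the brightest probe stood for a symbol (names through RefSeq accessions for 27235 probes).

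Technical repeats were averaged, giving 9 lymphoma, 1 GC, 4 anti-IgM and 2 untreated samples in 1 fit (12 residual degrees of freedom). Other fits took 6 or 4 splenic B cell samples with genotype as a term (3 and 1 degrees of freedom), and 8 drug arrays with 1 mean per time (4 degrees of freedom). Nothing says that lines or cultures were repeated, so p-values measure the spread between these samples. Genes missing on a sample were left out (188, 15, 2 and 1718). On simulated data at log2 changes of 2, 1 and 0.5, the lymphoma against untreated fit of 21434 genes recovered 46, 24 and 2 of 50 changed genes, the 6 h fit of 22525 genes 50, 50 and 14, and the drug mean fit of 17951 genes 50 each. The simulated noise was normal and independent between samples, with each gene's spread taken from these fits and few genes changed. Such counts describe that setting and do not give the power in the real samples.

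All members and their probes are named, and, of each pathway list and comparison, up to 3 called genes per direction, though not each of these. The members, lists and tests were chosen with earlier results of these data known. Alternatives were the series matrix, median centring, no filter, mean of probes, slides, repeats, other sets of groups, leaving out each sample, and line as a block. Some marker and profile results are not reported here.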

Additional observations from a re-analysis of the deposited data

Results flagged for a closer look

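For 2 members the change at 6 h of anti-IgM ran in opposite directions in the 2 genotypes, with 1 sample per genotype and condition, so the difference was not tested. Dusp4 was at -0.56 (6 h anti-IgM minus untreated) in ATMKO cells and at 1.61 in ATMWT cells. Dusp5 was at -0.97 in ATMKO cells and at 0.056 in ATMWT cells, where the ATMWT change is smaller than the range of 0.51 between the 3 repeat arrays of ATMKO untreated cells. None of the 9 members had a lymphoma line that stood apart from the other 8 by Dixon's test. The nearest was line 1036 for Dusp2, at -1.29 beside -0.73 in the next line.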

How the results depend on the processing

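Of 30 member calls, 4 held in every alternative, and of 91 member results without a call, 21 gained one in some alternative. Those 4 were Dusp4 at 24 h of drug, over 13 alternatives, and Dusp1, Dusp6 and Spry1 at 6 h of anti-IgM. The 6 h anti-IgM calls had only 4 alternatives each, whereas calls for lymphoma against anti-IgM cells had up to 25. Median centring in place of loess reversed 6 drug results that passed in at least 1 of the 2 fits: Dusp1 to 0.33, Dusp2 to 0.57, Dusp4 to 0.065 and Dusp6 to 0.20 over the 4 times, Dusp2 to 0.56 at 3 h and Dusp4 to 0.66 at 1 h. It also changed signs where neither fit made a call. It did so at 1 h for Dusp1 (0.42), Dusp2 (0.42), Dusp6 (0.02) and Spred2 (0.29) and at 3 h for Dusp4 (0.43) and Dusp6 (0.16), among others. It moved the median of all genes by 0.57, 0.56, 0.23 and 0.31 at 1, 3, 6 and 24 h, by -0.19 for 24 h minus 1 h and by 0.18 for 6 h of anti-IgM, where Dusp2 lost its call (-0.46, adjusted p = 0.0559 by limma). The share of called genes that were higher became 99%, against 51.7%, over the 4 times, 99.9% against 27.8% at 1 h, 99.4% against 42.9% at 3 h, 91.7% against 49.4% at 6 h, 97.3% against 47.9% at 24 h, 14.4% against 47.9% for 24 h minus 1 h, 74% against 42.1% for 6 h of anti-IgM and 30.3% against 45.1% for lymphoma against GC cells. With the value table it became 50.1% against 40% for GC against untreated cells. Median centring called 13118 of all genes, against 5799, over the 4 times, 10860 against 18 at 1 h and 10484 against 1297 at 3 h. At 6 h it called 3335 against 4353, and for 24 h minus 1 h 554 against 1268. In GC against anti-IgM cells it called 2500 against 3055. With the other alternatives below, the number of all genes called is not given beside the member counts. Counts of members called under median centring were 2, against 5, over the 4 times, 1 against 0 at 1 h, 2 against 0 at 3 h, 0 against 1 at 6 h, 1 against 3 for 24 h minus 1 h and 2 against 1 for GC against anti-IgM cells. For GC against anti-IgM cells the count was also 0 with first repeats, with only the groups compared, with slide as a block and within slide 2, 3 without both poor arrays and 2 without the first GC array. For GC against untreated cells it was 0, against 1, with first repeats, slide as a block and within slides 2 and 4, and 4 with only the groups compared. For lymphoma against GC cells it was 2, against 1, with only the groups compared or without the first GC array, 3 without both poor arrays, 0 within slide 4, and 0 with slide as a block, a fit of 7 members that held neither Dusp1 nor Dusp5. For lymphoma against anti-IgM cells it was 3, 1 and 1, against 5, within slides 2, 3 and 4, and for lymphoma against untreated cells 0, against 6, within slide 3. Anti-IgM against untreated cells gave 2, against 0, with all 16 samples. At 6 h of drug the count was 0 with the value table and 2 with line as a term (replicate block), which gave 5 over the 4 times and 2 at 24 h. Both lines are different tumours at the same times, so the block stands for the line. Leaving out each sample in turn gave 4 to 6 members for lymphoma against untreated cells, 5 to 5 against anti-IgM cells and 0 to 1 against GC cells. It gave 1 to 3 for GC against anti-IgM cells, 0 to 0 for GC against untreated cells, 2 to 5 for the drug over the 4 times, 0 to 1 at 3 h, 0 to 2 at 6 h, 1 to 2 at 24 h and 1 to 3 for 24 h minus 1 h. It could not be run for 6 h of anti-IgM, which leaves no residual degrees of freedom, nor without the GC sample. Slides that lack a group give no value. Spry1, Spry2 and Spred1 lie near background in lymphoma lines, the GC group is 1 sample, and no dye was swapped.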
